A study of Mus musculus with 4 samples.

Results

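The data described here are the transcripts of 10 genes of transforming growth factor beta (TGF-β) signalling in the leg muscles of late fetal (E18.5) mice, collected shortly before birth. The genes were chosen by name, from 32285 genes in the feature table. They are the ligands *Tgfb1*, *Tgfb2* and *Tgfb3*, the receptors *Tgfbr2* and *Tgfbr3*, the latent TGF-β binding proteins *Ltbp1*, *Ltbp2*, *Ltbp3* and *Ltbp4*, and *Tgfbi*, which encodes a matrix protein induced by TGF-β. The type I receptor gene *Tgfbr1* is not one of the 10 and is given beside them as the partner of *Tgfbr2*. Droplet-based single-cell RNA sequencing (scRNA-seq) was used, in which each captured transcript is counted once through its unique molecular identifier (UMI).

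WT (*SYISL* +/+) and KO (*SYISL* -/-) leg muscle each gave 2 libraries. *SYISL* is a gene for a long non-coding RNA found in muscle, and it is knocked out in the KO fetuses. Per the study's methods, heterozygous mothers carried both genotypes, so WT and KO fetuses were littermates, and no treatment was given. The knockout is carried in every cell and not only in muscle cells. How many fetuses entered each library was not stated, so the p-values below measure only the spread between these libraries. *SYISL* was not analysed here, so its loss was not checked.

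The deposited matrices held 9786 and 9528 cells in the WT libraries and 10757 and 11670 cells in the KO libraries, with 109653824 to 126257094 UMIs per library. After the study's filters on genes, UMIs and mitochondrial share, 36969 cells remained. Median depths were 10371 and 11427 UMIs per cell in WT and 9118 and 9727 in KO libraries, so both KO libraries were shallower. The study reports fewer cells under the same limits, so the cells kept here are not exactly its set. In each library, 59 to 67 of the kept cells had a barcode that also occurred in another library. *Xist*, the transcript of the inactive X chromosome, gave 131038 UMIs in KO replicate 2 and at most 5 in each other library, and UMIs of Y-linked genes were found in 1.00% of its cells against 85.8% to 89.9% in the others. That library therefore stands apart in its sex-linked transcripts, which were not balanced between WT and KO libraries. The part of sex in the differences between libraries was not tested. Values without KO replicate 2 are given for some results.

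Cells were grouped without using the 10 genes, and 9 classes were named from marker genes. They were 18481 fibro-adipogenic progenitor (FAP)-like cells, 6721 myogenic-like, 2381 tenocyte-like, 2312 chondrocyte-like, 1843 glial-like, 1327 endothelial-like, 1740 smooth muscle or pericyte-like, 280 mast-like and 957 macrophage-like cells. In each of these classes but the FAP-like one, every marker on its list stood at least 2-fold above all other cells, and 11 of 12 did in FAP-like cells. Chondrocyte-like cells were the most unequal class, with 176 to 1048 cells per library, the fewest being in KO replicate 1.

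TGF-β ligands are made as precursors that stay bound to their own propeptide, and this latent complex is in most cases joined to an LTBP, which anchors it in the extracellular matrix until it is activated. The freed ligand binds the type II receptor TGFBR2, which recruits the type I receptor TGFBR1, and the signal passes to SMAD transcription factors. In skeletal muscle, TGF-β is known to hold back the differentiation and fusion of myoblasts and to drive matrix production by connective tissue cells, and the ligands encoded by *Tgfb2* and *Tgfb3* are needed to form tendons.

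The 10 genes lie on 8 chromosomes (mm10). The ligand genes are *Tgfb1* (ENSMUSG00000002603, chr7:25687002-25705077, plus strand), *Tgfb2* (ENSMUSG00000039239, chr1:186622792-186705989, minus strand) and *Tgfb3* (ENSMUSG00000021253, chr12:86056745-86079041, minus strand). The receptor genes are *Tgfbr2* (ENSMUSG00000032440, chr9:116084293-116175360, minus strand) and *Tgfbr3* (ENSMUSG00000029287, chr5:107106570-107289629, minus strand). The binding protein genes are *Ltbp1* (ENSMUSG00000001870, chr17:75005568-75392512, plus strand), *Ltbp2* (ENSMUSG00000002020, chr12:84783212-84876532, minus strand), *Ltbp3* (ENSMUSG00000024940, chr19:5740904-5758532, plus strand) and *Ltbp4* (ENSMUSG00000040488, chr7:27305136-27337692, minus strand). The last are *Tgfbi* (ENSMUSG00000035493, chr13:56609523-56639562, plus strand) and the partner *Tgfbr1* (ENSMUSG00000007613, chr4:47353222-47414931, plus strand).

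Levels were expressed as CPM, the UMIs of a gene per 1000000 UMIs of a class in 1 library. Each gene was compared with itself across classes and libraries, and no level was compared between genes. Values are the mean ± SD of the 4 libraries unless stated otherwise. Classes that are neighbours in the order of levels were taken as apart only where the ranges of their 4 libraries did not overlap.

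The ligand gene *Tgfb1* was led by mast-like, macrophage-like and endothelial-like cells, while *Tgfb2* and *Tgfb3* were led by tenocyte-like and smooth muscle or pericyte-like cells. *Tgfb1*, whose product is best known from platelets, immune cells and fibrotic tissue, was highest in mast-like cells, at 182 and 201 CPM in WT and 132 and 129.8 CPM in KO libraries, and in macrophage-like cells, at 167 and 155 CPM in WT and 139 and 142 CPM in KO libraries. These classes overlapped and both lay above endothelial-like cells (63.1 ± 2.3 CPM), which lay above chondrocyte-like cells (34 ± 5.95 CPM). The other classes ran from 15.8 CPM in smooth muscle or pericyte-like cells through tenocyte-like, glial-like and FAP-like cells (7.32 CPM), with overlapping neighbours. Myogenic-like cells came last and apart, at 2.34 and 2.16 CPM in WT and 2.05 and 1.23 CPM in KO libraries, 82.9-fold below mast-like cells.

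*Tgfb2*, whose product relies on betaglycan for high-affinity binding to TGFBR2, had nearly the opposite order. It was highest in tenocyte-like cells, at 303 and 347 CPM in WT and 317 and 335 CPM in KO libraries. Smooth muscle or pericyte-like cells (179 ± 11.1 CPM) and FAP-like cells (169.8 ± 6.2 CPM) followed and overlapped, and myogenic-like cells were next and apart, at 158 and 147 CPM in WT and 159 and 153 CPM in KO libraries. Below them stood chondrocyte-like cells (137 ± 2.34 CPM), then glial-like and endothelial-like cells, which overlapped at 56.4 and 43.8 CPM. Mast-like cells (10.9 ± 4.98 CPM) and macrophage-like cells (3.09 ± 1.27 CPM) came last, 106-fold below tenocyte-like cells in the latter case. Under a looser cell filter (500 to 7500 genes, at least 500 UMIs and less than 15% mitochondrial UMIs), macrophage-like cells had 23.6 CPM and mast-like cells were the lowest class, at 19.7 CPM and 16.3-fold below tenocyte-like cells.

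*Tgfb3*, a ligand of palate, tendon and cartilage development, was highest in tenocyte-like (84.1 ± 5.17 CPM), smooth muscle or pericyte-like (75.6 ± 5.47 CPM) and chondrocyte-like cells (70.8 ± 7.87 CPM), whose libraries overlapped. FAP-like cells (46.1 ± 1.6 CPM), myogenic-like cells (20.4 ± 1.57 CPM) and glial-like cells (13.3 ± 2.32 CPM) followed, each apart from the last. Mast-like, macrophage-like and endothelial-like cells overlapped at 2.49 to 5.91 CPM. Over the 9 classes, log2(CPM + 1) of *Tgfb2* and *Tgfb3* correlated at r = 0.91, and that of *Tgfb1* and *Tgfb2* at r = -0.80. These values describe 9 classes that share the same 4 libraries.

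The promoter windows of *Tgfb1* and *Tgfb2* are shown because these ligand genes had the most opposed class patterns. The windows are RefSeq sequence of GRCm38.p6, from 250 bases before to 50 bases after the start of each gene, written 5′ to 3′ on the gene's strand, and 8 of the 10 genes had one in the table used. Capitals mark matches on either strand to TATAAA (the TATA box), GGGCGG (the GC box bound by Sp1) or TGACG (the core of a cyclic AMP response element).
Tgfb1: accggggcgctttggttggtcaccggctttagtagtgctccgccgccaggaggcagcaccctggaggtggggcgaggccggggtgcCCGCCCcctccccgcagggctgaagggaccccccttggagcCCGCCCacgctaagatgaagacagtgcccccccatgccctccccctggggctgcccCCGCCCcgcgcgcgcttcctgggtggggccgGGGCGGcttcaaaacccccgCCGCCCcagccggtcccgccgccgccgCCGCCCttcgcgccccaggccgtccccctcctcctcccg
Tgfb2: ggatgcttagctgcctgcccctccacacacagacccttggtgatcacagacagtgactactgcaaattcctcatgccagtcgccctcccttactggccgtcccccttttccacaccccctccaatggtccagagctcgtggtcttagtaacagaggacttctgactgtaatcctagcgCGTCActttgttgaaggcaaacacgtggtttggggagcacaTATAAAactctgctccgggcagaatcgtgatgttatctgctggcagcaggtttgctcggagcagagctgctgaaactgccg
The first is chr7:25686752-25687051 on the plus strand and the second chr1:186705940-186706239 on the minus strand. The *Tgfb1* window was 77% G and C and held 6 GC boxes and no match to the other motifs. The *Tgfb2* window was 54.3% G and C and held no GC box, 1 TATA box starting 31 bases before the gene's start and 1 such core starting 72 bases before it. No match overlapped a match to another motif. Of 32851 windows of this kind, 35.7% held the GC box, 13.6% the TATA box and 20.8% the core of the response element. These matches describe letters in the windows, and no binding was measured.

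The receptor genes differed in how evenly the classes shared them. *Tgfbr2*, the type II receptor that every ligand needs, varied least of the 10, by 6.33-fold between the highest and lowest class. Endothelial-like cells were highest and apart, at 211 and 224 CPM in WT and 194 and 188 CPM in KO libraries. Macrophage-like (152 ± 15.9 CPM), FAP-like (134 ± 5.74 CPM), chondrocyte-like (108 ± 25.4 CPM) and tenocyte-like cells (106 ± 8.53 CPM) each overlapped their neighbour. Mast-like and glial-like cells followed at 78.1 and 58.5 CPM. Myogenic-like cells (35.6 and 36.1 CPM in WT and 33.7 and 31.5 CPM in KO libraries) and smooth muscle or pericyte-like cells (32.3 ± 4.43 CPM) overlapped at the bottom.

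*Tgfbr3* encodes betaglycan, a co-receptor without a kinase that presents ligand to TGFBR2. It was highest in glial-like cells, at 714 and 671 CPM in WT and 598 and 543 CPM in KO libraries, above FAP-like cells (215 ± 25.9 CPM). Tenocyte-like (158 ± 25.4 CPM), endothelial-like (158 ± 8.74 CPM) and chondrocyte-like cells (108 ± 30.1 CPM) overlapped below these, and so did myogenic-like (76.3 ± 10.0 CPM) and smooth muscle or pericyte-like cells (63.4 ± 7.96 CPM) a step further down. Mast-like cells had 13.1 CPM and macrophage-like cells 2.62 CPM, 241-fold below glial-like cells. That fold was 152 at clustering resolution 1. Under the looser cell filter macrophage-like cells had 39.9 CPM and mast-like cells were the lowest class, at 34.0 CPM and 18.1-fold below glial-like cells.

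The partner gene *Tgfbr1* had another order. Mast-like cells were highest and apart (311 ± 77.4 CPM), followed by tenocyte-like, chondrocyte-like and myogenic-like cells, which overlapped at 127 to 147 CPM. Endothelial-like cells, the highest class for *Tgfbr2*, were the lowest for *Tgfbr1* (59.2 ± 5.05 CPM).

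The genes of the latent complex were mainly those of connective tissue, but each had a pattern of its own. *Ltbp1*, the best studied carrier of latent TGF-β, was highest in chondrocyte-like cells, at 152 and 213 CPM in WT and 178 and 167 CPM in KO libraries. Myogenic-like cells came next, at 109 and 97.5 CPM in WT and 111 and 79.3 CPM in KO libraries, and overlapped tenocyte-like cells (98.1 ± 12.5 CPM). With the looser cell filter the lead of chondrocyte-like cells was smaller, at 109 CPM (range over libraries 104 to 120 CPM) against 98.1 CPM (76.1 to 111 CPM) in myogenic-like cells, and these ranges overlapped. The chondrocyte-like clusters also differed. With the libraries pooled, *Ltbp1* was 333 CPM in the cluster led by *Runx2*, which had 3 tenocyte markers at 2-fold or more. It was 118, 78.1 and 79.5 CPM in those led by *Msmp*, *Matn3* and *Matn1*. Mast-like, FAP-like, endothelial-like and smooth muscle or pericyte-like cells, from 46.2 to 76.4 CPM, each overlapped a neighbour, and glial-like (24.8 CPM) and macrophage-like cells (2.58 CPM) were lower and apart.

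*Ltbp2*, which binds fibrillin but not latent TGF-β, had its highest levels in tenocyte-like (44.4 ± 5.35 CPM) and chondrocyte-like cells (44.1 ± 8.61 CPM), which overlapped. Under the looser cell filter chondrocyte-like cells had 21.5 CPM. With the study's filters and the libraries pooled, *Ltbp2* was 97.6 CPM in the chondrocyte-like cluster led by *Runx2*. It was at most 18.2 CPM in those led by *Msmp*, *Matn3* and *Matn1*. FAP-like cells had 9.7 ± 1.77 CPM, and the other classes had 0.639 to 2.85 CPM. *Ltbp3*, a carrier known for its part in bone and tooth formation, had the same leading classes, at 94.2 ± 9.18 CPM in tenocyte-like and 91.8 ± 1.02 CPM in chondrocyte-like cells, followed by FAP-like cells (42.9 ± 1.71 CPM). Its level in myogenic-like cells was 17 ± 0.771 CPM.

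*Ltbp4*, which takes part in elastic fibre assembly, was the most even of the binding protein genes outside immune cells. Tenocyte-like cells were highest (100.1 ± 6.37 CPM), and FAP-like (84.7 ± 4.36 CPM), endothelial-like (75.5 ± 14.6 CPM), myogenic-like (73.9 ± 6.2 CPM) and glial-like cells (70.9 ± 7.04 CPM) each overlapped the next. Smooth muscle or pericyte-like and chondrocyte-like cells overlapped at 43.8 and 41.8 CPM, and mast-like and macrophage-like cells had 3.33 and 2.69 CPM.

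*Tgfbi*, whose product binds collagens and integrins, was highest in tenocyte-like cells, at 272 and 241 CPM in WT and 247 and 215 CPM in KO libraries. Macrophage-like cells (164 and 148 CPM in WT and 155 and 138 CPM in KO libraries) and chondrocyte-like cells (156 and 103 CPM in WT and 94.3 and 89.9 CPM in KO libraries) overlapped below them. FAP-like cells had 42.9 ± 7.61 CPM and glial-like cells 13.4 ± 1.53 CPM. Myogenic-like cells (7.9 ± 1.33 CPM) shared the lowest levels with the endothelial-like, smooth muscle or pericyte-like and mast-like classes, of which the last had 2.29 CPM.

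**Figure D1:**
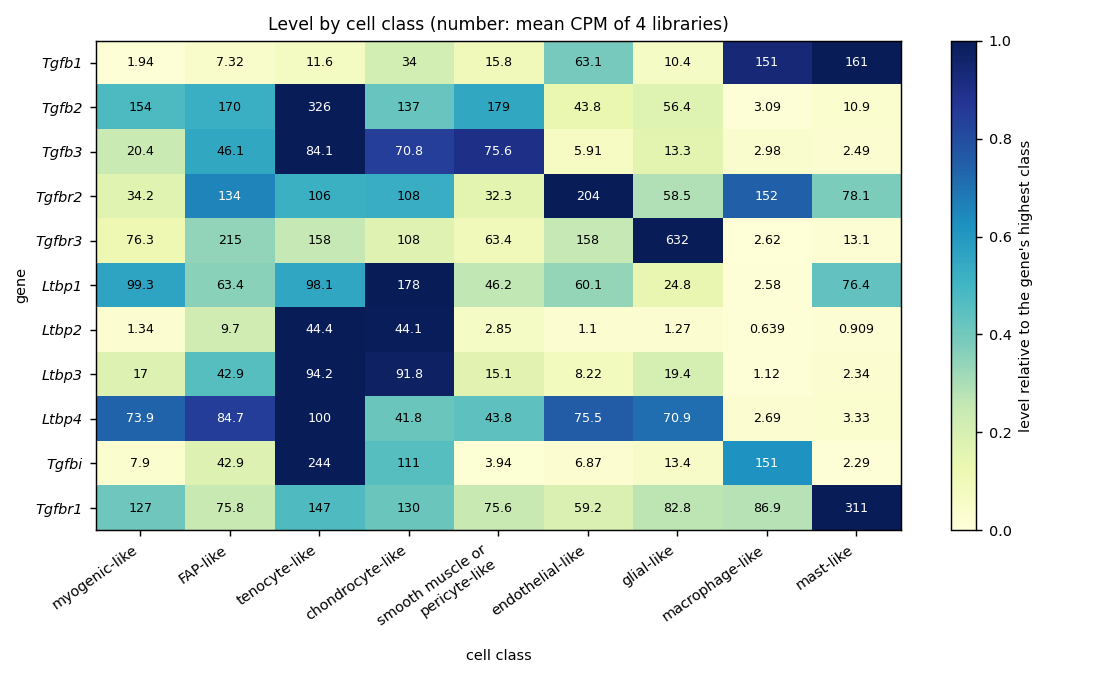
Heat map of the level of the 10 genes and *Tgfbr1* (rows) in 9 cell classes (columns). Numbers are the mean CPM of the 4 libraries and the colour is the level relative to the gene's highest class, from 0 to 1. *Tgfb1* peaks at 161 CPM in mast-like and 151 CPM in macrophage-like cells, while *Tgfb2*, *Tgfb3*, *Ltbp2*, *Ltbp3*, *Ltbp4* and *Tgfbi* peak in tenocyte-like cells.

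Because classes differ in size, the class with the highest level was often not the one that held most transcripts. FAP-like cells made up 50.0% of the kept cells and held 43.7% to 64.8% of the UMIs of each of the other 9 genes, but only 23.1% ± 1.25 of those of *Tgfb1*. Macrophage-like cells, 2.58% of the kept cells, held 25% ± 1.94 of the *Tgfb1* UMIs, endothelial-like cells 14.4% and mast-like cells 7.73%. Myogenic-like cells, 18.1% of the kept cells, held 17.3% ± 2.34 of the *Tgfb2*, 24% ± 5.96 of the *Ltbp1* and 17.4% ± 2.18 of the *Ltbp4* UMIs, but 5.7% ± 0.322 of the *Tgfbr2* and 2.13% ± 0.651 of the *Tgfb1* UMIs. Tenocyte-like cells, 6.5% of the kept cells, held 29.3% of the *Tgfbi* and 25.4% of the *Ltbp2* UMIs, and glial-like cells held 18.52% of the *Tgfbr3* UMIs.

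The share of cells with at least 1 UMI was compared after each cell was thinned to 2000 UMIs, which left out 15 to 28 shallower cells per library. Median depths before thinning were 7436 to 12201 UMIs over the classes and libraries. A *Tgfb1* UMI was found in 28.7% ± 8.33 of mast-like, 25.8% ± 6.53 of macrophage-like and 0.371% ± 0.239 of myogenic-like cells. Before thinning, the first and last of these shares were 70.0% and 1.99%. *Tgfb2* UMIs were found in 40.6% ± 2.67 of tenocyte-like, 24.6% ± 0.68 of myogenic-like and 0.32% ± 0.403 of macrophage-like cells. *Tgfbr3* UMIs were found in 63.8% ± 3.08 of glial-like and 0.424% ± 0.592 of macrophage-like cells, and *Tgfbi* UMIs in 36.3% ± 2.43 of tenocyte-like and 0.424% ± 0.847 of mast-like cells. Free RNA can give UMIs in cells that do not express a gene, and its level was not measured.

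Within the myogenic-like class, clustering separated 3648 progenitor-like cells with 4 progenitor markers, 1870 cycling cells of no stage, 1126 myoblast-like cells with *Myog*, *Mymk* and *Mymx*, and 77 myotube-like cells, too few to test. The myoblast-like cells had 6 myoblast markers and also 4 myotube markers at 1.5-fold or more above the other myogenic-like cells. At a finer clustering (resolution 1 in place of 0.3), 1897 cells were progenitor-like, 1839 cycling, 1090 myoblast-like and 1818 of no stage. The cell suspension had been passed through a 40 µm strainer. Most of the 10 genes were lower in myoblast-like than in progenitor-like cells of the same library. Because the stages were built from these cells, the folds are given as a description, with no test.

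*Ltbp1* showed the largest step between stages. Its level was 160.2 and 134 CPM in WT and 161 and 117 CPM in KO libraries in progenitor-like cells and 10.1 and 7.4 CPM in WT and 9.27 and 5.58 CPM in KO libraries in myoblast-like cells, 18.1-fold (range over libraries 15.9 to 21) lower. *Tgfb2* was 218 and 201 CPM in WT and 226 and 209 CPM in KO libraries in progenitor-like cells and 30.3 and 36.4 CPM in WT and 28.1 and 44.7 CPM in KO libraries in myoblast-like cells, 6.36-fold (range over libraries 4.68 to 8.05) lower. No library of the later stage overlapped one of the earlier stage for either gene, and cycling cells lay between them, at 91.9 CPM for *Ltbp1* and 142 CPM for *Tgfb2*. At resolution 1 the folds were 27.1 and 8.03.

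The receptor genes were lower as well, *Tgfbr2* going from 49.1 ± 3.15 CPM to 13.6 ± 2.64 CPM, 3.74-fold (range over libraries 2.59 to 4.53), and *Tgfbr3* from 97.5 ± 12.1 CPM to 32.1 ± 7.35 CPM, 3.16-fold (range over libraries 2.38 to 4.07). *Ltbp4* was 2.95-fold (range over libraries 2.06 to 4.23) and *Ltbp3* 1.62-fold (range over libraries 1.4 to 1.76) lower in myoblast-like cells. *Tgfbi* went from 11.4 ± 1.68 CPM to 1.83 ± 1.15 CPM, but the later value rests on 24 UMIs in all. *Tgfb3* went the other way, with 20.4 and 19.5 CPM in WT and 22.6 and 17.3 CPM in KO libraries in progenitor-like and 29.2 and 23.2 CPM in WT and 25.8 and 23.5 CPM in KO libraries in myoblast-like cells, 1.28-fold higher in the latter (range over libraries 1.14 to 1.43). At resolution 1 it was higher in the latter in 3 of 4 libraries, at 26.1 against 24.03 CPM on average. The partner gene *Tgfbr1* was also higher in myoblast-like cells, by 1.41-fold (range 1.37 to 1.51), from 115 ± 3.07 CPM to 163 ± 8.85 CPM. *Tgfb1* and *Ltbp2* were low in every myogenic stage, at 0.552 to 2.64 CPM.

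**Figure D2:**
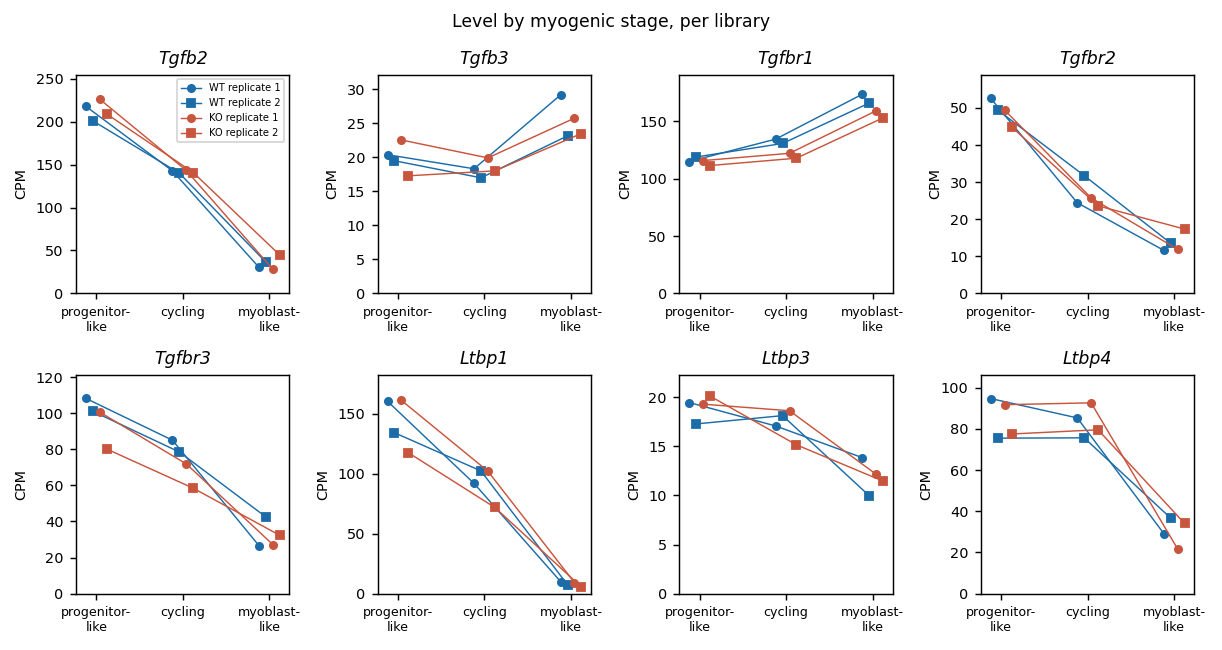
Level in CPM (y axis, from 0) of 7 of the 10 genes and *Tgfbr1* in progenitor-like, cycling and myoblast-like cells (x axis). Each line joins the values of 1 library, blue for WT and red for KO. *Ltbp1* is lower at the later stage in all 4 libraries, going from at least 117 CPM in progenitor-like cells to at most 10.1 CPM in myoblast-like cells, while *Tgfb3* and *Tgfbr1* are higher in myoblast-like cells.

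FAP-like cells, the largest source of 9 of the 10 transcripts, fell into 5 clusters that are named here by their leading gene. They were 8823 cells led by *Grm8*, 5519 led by *Ly6a*, which also had *Pi16* among their leading genes, 2615 led by cell cycle genes such as *Mxd3*, 1290 led by *Ccl11* and 234 led by *Bglap2*. The *Bglap2* cluster was split from a larger one whose other parts were named tenocyte-like, chondrocyte-like or osteoblast-like. It also had 2 tenocyte markers at 2-fold or more. The clusters were defined on the same cells, so the values are a description.

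*Tgfbi* differed most between these clusters. It had 7.59 CPM (range over libraries 6.79 to 8.69 CPM) in cells led by *Grm8*, 73.9 CPM (60.4 to 86.4 CPM) in those led by *Ly6a* and 476 CPM (429.6 to 561 CPM) in the small cluster led by *Bglap2*. *Ltbp2* was nearly absent from cells led by *Grm8* (0.938 CPM, 0.765 to 1.24 CPM) and had 23.6 CPM (18.8 to 28.7 CPM) in those led by *Ly6a*. *Ltbp1* was 27.2 CPM (19.8 to 33.5 CPM) and 116 CPM (106 to 124 CPM) in the same clusters. *Ltbp4* was highest in cells led by *Ccl11*, at 272 CPM (251 to 301 CPM), against 48.2 CPM (42.2 to 58.1 CPM) in those led by *Grm8*. *Tgfb2* was lower in cells led by *Ccl11* (83.5 CPM, 77.2 to 92 CPM) than in those led by *Grm8* (176 CPM, 169.8 to 185 CPM) or *Ly6a* (209 CPM, 193 to 226 CPM). *Tgfbr2* moved little, from 114 to 148 CPM across the 5 clusters.

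**Figure D3:**
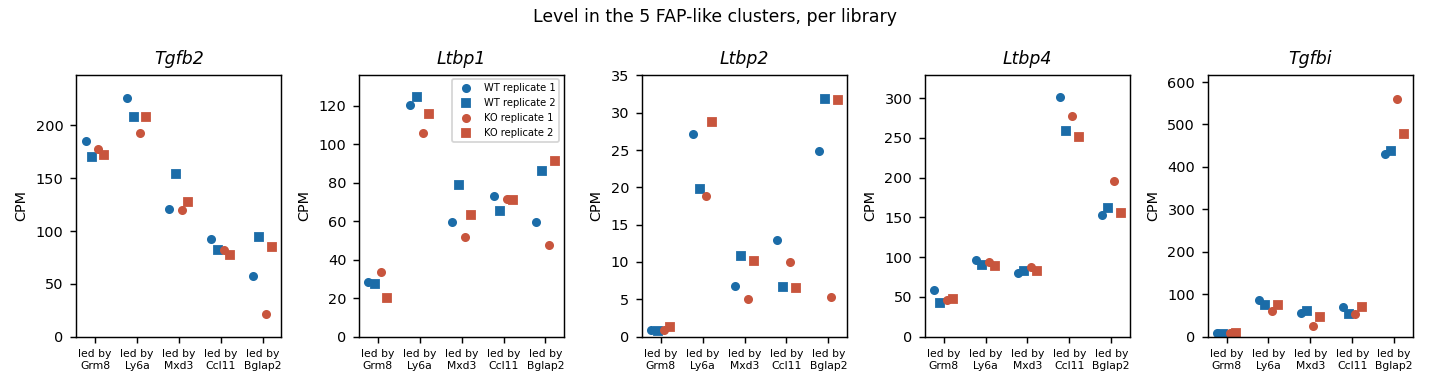
Level in CPM (y axis, from 0) of *Tgfb2*, *Ltbp1*, *Ltbp2*, *Ltbp4* and *Tgfbi* in the 5 clusters of FAP-like cells (x axis, named by a leading gene). Points are single libraries, blue for WT and red for KO. *Ltbp4* is highest in cells led by *Ccl11* (272 CPM on average) and *Tgfbi* in those led by *Bglap2* (476 CPM).

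The comparison of KO with WT asked whether loss of *SYISL* was accompanied by a change of these genes in any cell class. For this, the UMIs of each class were added up within a library, and edgeR's quasi-likelihood test was run on every gene that passed its filter on low counts, with Benjamini-Hochberg adjustment. With edgeR, none of the 10 genes passed an adjusted p of 0.05 in any of the 9 classes, the 3 myogenic stages tested or all kept cells, and none did with DESeq2. In simulated data of this size, a 2-fold change was given to 67 genes in each of 2 classes. It was recovered for 88.1% of them in myogenic-like and 80.6% in FAP-like cells, and a 1.5-fold change for 56.7% and 46.3%. Many genes were changed at once there, only genes with enough counts were changed, and the spread was the fitted one. These shares therefore do not give how often a change in a single one of the 10 genes would be found.

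With edgeR, 0 of 14639 genes tested in myogenic-like cells passed the adjusted threshold (0% called), 510 (3.48%) had an unadjusted p under 0.05, and DESeq2 called 1 gene. All 10 genes were tested. Among them 1 had an unadjusted p under 0.05, and that was *Tgfbi*. It had 6.88 and 6.68 CPM in WT and 9.36 and 8.69 CPM in KO libraries, so the KO libraries were the higher ones. Its log2 fold change was 0.45 ± 0.14 (SE, 95% interval 0.14 to 0.77, edgeR adjusted p = 0.971). The 12 FAP markers, whose cells hold more *Tgfbi*, summed to 820.2 and 738 CPM in WT and 827 and 804 CPM in KO libraries of the same class, and 3 of the 12 were higher in both KO libraries. The part of such transcripts in the difference was not tested.

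*Tgfbr3* in myogenic-like cells was 85.4 and 81.3 CPM in WT and 76.2 and 62.3 CPM in KO libraries, and the KO libraries lay below the WT libraries. The log2 fold change was -0.23 ± 0.10 (edgeR adjusted p = 0.971). It was -0.36 without KO replicate 1 and -0.10 without KO replicate 2, the library with *Xist*. *Tgfb1* (2.34 and 2.16 CPM in WT and 2.05 and 1.23 CPM in KO libraries) and *Tgfbr2* (35.6 and 36.1 CPM in WT and 33.7 and 31.5 CPM in KO libraries) were also lower in both KO libraries, with log2 fold changes of -0.42 ± 0.32 and -0.094 ± 0.080. Without KO replicate 2, that of *Tgfb1* was -0.10. Over all genes tested in this class, the KO libraries were the lower ones in 23.4% and the higher ones in 9.95%, so 3 of 10 genes below and 1 above is close to the background.

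The other 6 genes overlapped between WT and KO libraries in myogenic-like cells. Their log2 fold changes were 0.074 ± 0.072 for *Tgfb2* (95% interval -0.091 to 0.24), 0.063 ± 0.12 for *Tgfb3* (-0.20 to 0.33), -0.080 ± 0.14 for *Ltbp1* (-0.40 to 0.24), -0.34 ± 0.39 for *Ltbp2* (-1.24 to 0.56), 0.068 ± 0.11 for *Ltbp3* (-0.19 to 0.33) and 0.054 ± 0.10 for *Ltbp4* (-0.18 to 0.29). The adjusted p was 0.971 to 0.974 for each. The intervals were narrowest for *Tgfb2* and widest for *Ltbp2*, which had 93 UMIs in this class. For *Tgfbr1* the value was -0.055 ± 0.067 (-0.21 to 0.10, adjusted p = 0.971).

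With edgeR, 0 of 18350 genes tested in FAP-like cells passed it (0% called), 576 (3.14%) had an unadjusted p under 0.05, and DESeq2 called 9 genes. All 10 genes were tested and none had an unadjusted p under 0.05, and each adjusted p was 1.00. *Tgfb2* (178 and 171 CPM in WT and 165 and 165 CPM in KO libraries), *Tgfb3* (48.2 and 46.2 CPM in WT and 44.4 and 45.5 CPM in KO libraries) and *Ltbp1* (61.8 and 70.5 CPM in WT and 60.4 and 60.8 CPM in KO libraries) were lower in both KO libraries, by small amounts, with log2 fold changes of -0.046 ± 0.062, -0.035 ± 0.071 and -0.089 ± 0.081. That count of 3 below and 0 above stood against 22.1% and 9.22% of all genes tested.

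*Tgfbi* had the largest difference of the 10 in FAP-like cells, at 45.6 and 48.5 CPM in WT and 31.6 and 45.8 CPM in KO libraries. One KO library was low and the other lay within the WT range. The log2 fold change was -0.25 ± 0.17 (95% interval -0.65 to 0.16, edgeR adjusted p = 1.00), -0.0044 without KO replicate 1 and -0.54 without KO replicate 2. In the cells led by cell cycle genes, *Tgfbi* was 56.3 and 59.6 CPM in WT and 24.4 and 45.4 CPM in KO libraries. The small cluster led by *Bglap2*, where *Tgfbi* is highest, made up 0.399% of FAP-like cells in KO replicate 1 and 1.13% to 2.08% in the other libraries. The part of that share in the difference was not tested. Log2 fold changes of the remaining genes were -0.12 ± 0.15 for *Tgfb1*, -0.033 ± 0.071 for *Tgfbr2*, -0.080 ± 0.13 for *Tgfbr3*, 0.013 ± 0.21 for *Ltbp2*, -0.0050 ± 0.078 for *Ltbp3*, -0.022 ± 0.082 for *Ltbp4* and 0.036 ± 0.090 for *Tgfbr1*.

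**Figure D4:**
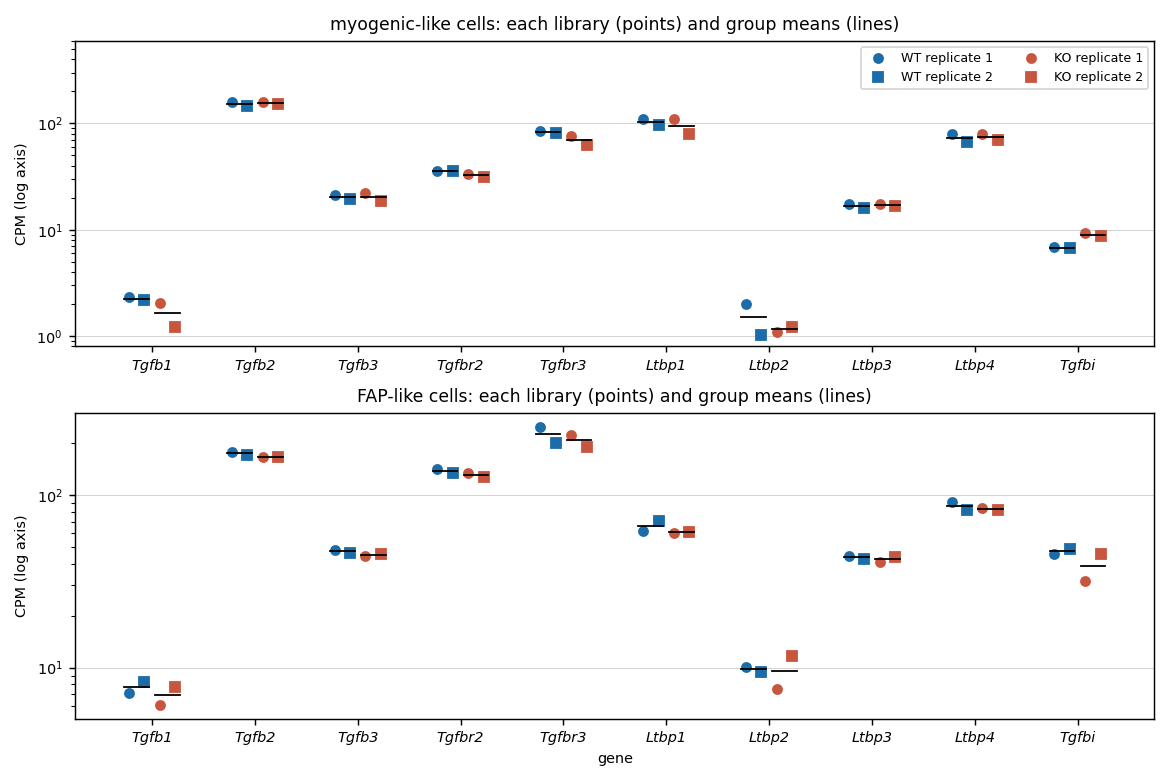
Level in CPM (y axis, log scale) of the 10 genes (x axis) in myogenic-like cells (upper panel) and FAP-like cells (lower panel). Points are single libraries, blue for WT and red for KO, and black lines are the means of 2 libraries. *Tgfbi* lies higher in both KO libraries in myogenic-like cells (8.69 and 9.36 CPM), and lower in 1 of 2 in FAP-like cells.

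**Figure D5:**
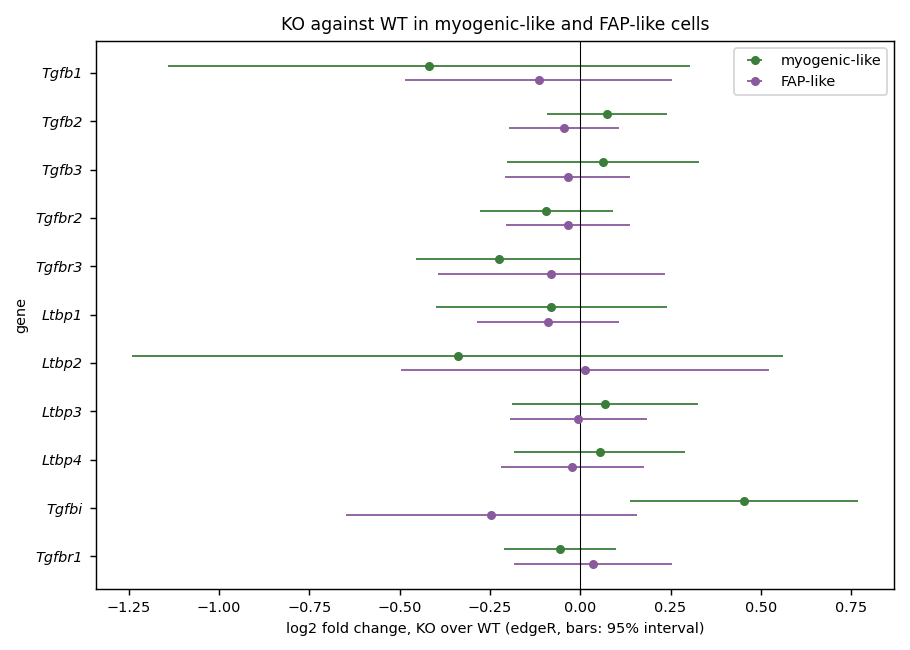
Log2 fold change of KO over WT (x axis) for the 10 genes and *Tgfbr1* (y axis) in myogenic-like (green) and FAP-like (purple) cells. Points are edgeR estimates and bars their 95% intervals. Every interval crosses 0 except that of *Tgfbi* in myogenic-like cells (0.14 to 0.77), which has an adjusted p of 0.971.

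The opposite signs of *Tgfbi* were tested as an interaction, with each library as a block. The KO effect was higher by 0.71 ± 0.20 (log2, SE, 95% interval 0.26 to 1.16) in myogenic-like than in FAP-like cells, with an edgeR adjusted p of 1.00. Of 18095 genes tested, 0 (0%) passed the adjusted threshold and 577 (3.19%) had an unadjusted p under 0.05, as did 1 of the 10 genes. The difference was 0.41 without KO replicate 1 and 1.03 without KO replicate 2. Without the filter on low counts it was 0.71 with an edgeR adjusted p of 0.0197. In that fit 11 genes were called higher and 33 lower, of 26168 tested. No other tool was run on the interaction.

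The other classes are given with the background of each comparison. All 10 were tested in tenocyte-like cells, where 0% of genes passed the adjusted threshold with edgeR, 2.22% had an unadjusted p under 0.05 and DESeq2 called 0, and none of the 10 was among them. The same held for the sum of all kept cells (0% and 4.71%, with 54 called by DESeq2), a comparison that also moves with the number of cells of each class. In endothelial-like cells 9 were tested and none had an unadjusted p under 0.05, against 0.00853% of genes called and 3.59% unadjusted. In macrophage-like cells only *Tgfb1*, *Tgfbr2* and *Tgfbi* passed the filter on low counts, and none had an unadjusted p under 0.05 (background 0% and 5.19%, with 6 called by DESeq2). *Tgfb1* in this class was 167 and 155 CPM in WT and 139 and 142 CPM in KO libraries, with a log2 fold change of -0.18 ± 0.12.

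Chondrocyte-like cells gave 3 of 10 genes with an unadjusted p under 0.05, against 3.19% of all genes tested, and none past the adjusted threshold, as for all genes (0%, and 0 with DESeq2). *Tgfb1* was 41 and 36.6 CPM in WT and 27.7 and 30.6 CPM in KO libraries (log2 fold change -0.37 ± 0.16). *Tgfbi* was 156 and 103 CPM in WT and 94.3 and 89.9 CPM in KO libraries (-0.49 ± 0.20), with WT replicate 1 well above the rest, and -0.13 without that library. *Tgfbr2* was 93.5 and 89.1 CPM in WT and 145 and 105 CPM in KO libraries (0.41 ± 0.16), and 0.21 without KO replicate 1. The adjusted p of each was 1.00. The 8 chondrocyte markers summed to 19260.2 and 13083 CPM in WT and 9654 and 13418 CPM in KO libraries of this class, and the cluster led by *Runx2* held 120 of 389 and 290 of 699 cells in WT and 87 of 176 and 398 of 1048 cells in KO libraries. That cluster had 68.1 CPM of *Tgfbi* and 23.7 CPM of *Tgfb1*, against 137 and 42.3 CPM in the cluster led by Msmp, and 117 CPM of *Tgfbr2* against 95.9 CPM. The part of these differences in makeup was not tested.

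Mast-like cells gave 2 of 5 genes tested with an unadjusted p under 0.05, against 7.97% of all genes tested, and 24 genes (0.347%) were called in that class, none of them among the 10. *Tgfb1* was 182 and 201 CPM in WT and 132 and 129.8 CPM in KO libraries, and the KO libraries were the lower ones. Its log2 fold change was -0.55 ± 0.15 (95% interval -0.89 to -0.20, edgeR adjusted p = 0.277). *Tgfb2* was 6.21 and 6.93 CPM in WT and 15.4 and 14.9 CPM in KO libraries, from 36 UMIs in all (1.19 ± 0.51, edgeR adjusted p = 0.592), and had a log2 fold change of -0.31 under a looser cell filter. FAP markers in the same mast-like cells summed to 700.0 and 699 CPM in WT and 2374 and 1806 CPM in KO libraries, with 11 of 12 higher in both KO libraries, and *Col1a1*, *Col1a2* and *Dcn* were among the genes called higher. Their part in the difference of *Tgfb2* was not tested.

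Smooth muscle or pericyte-like cells gave 1 of 10 genes with an unadjusted p under 0.05, against 5.26% of all genes tested, and 16 genes (0.127%) were called there. That gene was again *Tgfbi*, at 1.43 and 3.07 CPM in WT and 7.4 and 3.85 CPM in KO libraries, from 73 UMIs in all. Its log2 fold change was 1.38 ± 0.45 (95% interval 0.42 to 2.34, edgeR adjusted p = 0.652), 0.82 without KO replicate 1 and 0.91 without WT replicate 1 or without the cells called as doublets. FAP markers summed to 2840.5 and 2463 CPM in WT and 4030.1 and 3289 CPM in KO libraries of this class, 11 of 12 being higher in both KO libraries, and *Dcn* and *Lum* were called higher. The 8 macrophage markers, whose cells also hold *Tgfbi*, summed to 24.1 and 22.7 CPM in WT and 52.4 and 17.5 CPM in KO libraries. Of these, 2 were higher in both KO libraries. The part of either marker set's cells in the difference of *Tgfbi* was not tested. *Tgfbr1* in the same cells was 78.5 and 86 CPM in WT and 71.1 and 66.9 CPM in KO libraries (-0.23 ± 0.10, edgeR adjusted p = 0.934).

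Glial-like cells, the class with the most *Tgfbr3*, gave 1 of 9 genes tested with an unadjusted p under 0.05, against 3.44% of all genes tested, with 0% called by edgeR and 1 gene by DESeq2. *Tgfbr3* was 714 and 671 CPM in WT and 598 and 543 CPM in KO libraries, so the KO libraries lay below the WT libraries. The log2 fold change was -0.27 ± 0.087 (95% interval -0.48 to -0.062, edgeR adjusted p = 0.997). The 8 glial markers summed to 6676 and 4814 CPM in WT and 6204 and 4811 CPM in KO libraries in this class, none of them being higher in both KO libraries. The 12 FAP markers, whose cells also hold *Tgfbr3*, summed to 10632 and 11495 CPM in WT and 10385 and 10921 CPM in KO libraries. Of these, 4 were higher in both KO libraries. Scrublet marked 6.24% of glial-like cells. The part of FAP-like transcripts in the difference of *Tgfbr3* was not tested.

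By myogenic stage, none of the genes tested passed the adjusted threshold, and no gene at all did (0% in each stage with edgeR, and 1 gene in each stage with DESeq2). Genes with an unadjusted p under 0.05 made up 3.37% in progenitor-like, 3.83% in cycling and 4.64% in myoblast-like cells. Of the 10 genes, none of 10 tested in progenitor-like and none of 7 tested in myoblast-like cells were among them, and 2 of 9 tested in cycling cells were. *Tgfbi* in cycling cells was 5.93 and 3.36 CPM in WT and 7.27 and 9.55 CPM in KO libraries (log2 fold change 0.88 ± 0.30, edgeR adjusted p = 0.995). It was 0.53 without WT replicate 2, 1.36 without WT replicate 1 and 1.07 without KO replicate 1. The higher of the KO values, 9.55 CPM, was that of KO replicate 2, the library with *Xist*. *Tgfbr3* in the same cells was 85 and 78.5 CPM in WT and 71.9 and 58.4 CPM in KO libraries (-0.30 ± 0.12, edgeR adjusted p = 0.995). Its log2 fold change was -0.16 without KO replicate 2 and -0.44 without KO replicate 1. FAP markers in cycling cells summed to 764 and 721 CPM in WT and 839.8 and 851 CPM in KO libraries, with 7 of 12 higher in both KO libraries, and their part in these differences was not tested.

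The rest of the pathway was described from a list of 46 other genes in 4 groups. These were 4 partner and accessory receptors, 16 genes that store or activate latent TGF-β, 12 SMAD signalling genes and their inhibitors, and 14 transcripts known to be raised by TGF-β in mesenchymal cells. No gene of any group passed the adjusted threshold in myogenic-like or FAP-like cells, as for all genes. In myogenic-like cells 44 were tested, 25 with a log2 fold change above 0 and 19 below, and the group medians were 0.02, 0.02, -0.02 and 0.10 in the order given, beside a median of 0.00 over all genes tested. In FAP-like cells all 46 were tested, 31 above 0 and 15 below, with group medians of 0.02, 0.03, 0.02 and 0.04 beside 0.00.

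Genes of that list with an unadjusted p under 0.05 were few. In myogenic-like cells they were *Itgb8*, an integrin subunit that releases TGF-β from its latent complex (10.2 and 12.2 CPM in WT and 14.6 and 13.3 CPM in KO, log2 fold change 0.36 ± 0.13), *Mmp2*, a gelatinase (18 and 15.8 CPM in WT and 12.6 and 10.8 CPM in KO, log2 fold change -0.49 ± 0.13), and *Cdkn1a*, the cell cycle inhibitor p21 (166 and 156 CPM in WT and 199 and 165 CPM in KO, log2 fold change 0.21 ± 0.091). The value of *Cdkn1a* was 0.09 without KO replicate 1 and 0.33 without KO replicate 2. In FAP-like cells they were *Thbs1*, a secreted activator of latent TGF-β (251 and 260.0 CPM in WT and 309 and 279 CPM in KO, log2 fold change 0.24 ± 0.071), and the contractile genes *Acta2* (37.1 and 31.6 CPM in WT and 44 and 48.3 CPM in KO, log2 fold change 0.46 ± 0.11) and *Tagln* (14.5 and 13.6 CPM in WT and 16.2 and 18.1 CPM in KO, log2 fold change 0.33 ± 0.097). Each had an adjusted p of 0.971 in myogenic-like or 1.00 in FAP-like cells with edgeR. The 11 myogenic markers summed to 77.6 and 57.4 CPM in WT and 88.8 and 99.1 CPM in KO libraries of FAP-like cells, 6 of the 11 being higher in both KO libraries, and myogenic-like cells had 448 to 499.9 CPM of *Acta2* and 201 to 221 CPM of *Tagln*. The 10 smooth muscle or pericyte markers, which include *Acta2* and *Tagln*, summed to 277 and 252 CPM in WT and 284 and 276 CPM in KO libraries of FAP-like cells. Of these, 3 were higher in both KO libraries. The part of either cell type in the differences of these genes in FAP-like cells was not tested. The share of these genes, 3 of 44 and 3 of 46, stood against 3.48% and 3.14% of all genes tested.

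For each of the 10 genes, the most similar genes were those with the highest Pearson correlation of log2(CPM + 1) over the 9 classes, among 12155 genes. The classes share their libraries, so these values are a description. *Tgfb1* was closest to *Nsf* (r = 0.98), *Itga9* (0.97) and *Fxyd5* (0.96). *Tgfb2* was closest to *Wnt5b*, *Bhlhb9* and *Cacna2d1* (each 0.98), and *Tgfb3* to *Dact3* (0.98), *Frk* and *Zbtb7c* (each 0.97). The receptor gene *Tgfbr2* was closest to *Apaf1* (0.93), *2010315B03Rik* and *Cog2* (each 0.92), and *Tgfbr3* to *Limch1*, *Gulp1* (each 0.98) and *Lama4* (0.97), a laminin subunit. Among the binding protein genes, *Ltbp1* was closest to *Zfp521*, *Mpped2* (each 0.95) and *Ercc6l2* (0.92), *Ltbp2* to *Itga11*, *Galnt5* (each 0.99) and *C1qtnf4* (0.98), *Ltbp3* to *Zfp354c* (0.99), *Slc1a4* (0.98) and *Uggt2* (0.97), and *Ltbp4* to *Bcorl1* (0.99), *Dlg5* and *Amotl2* (each 0.98). *Tgfbi* was closest to *Ell* (0.97), and its correlation with *Ccdc106* was 0.96. Among pairs of the 10 genes themselves, *Tgfb1* and *Ltbp4* (r = -0.80) were as opposed as *Tgfb1* and *Tgfb2*, and *Tgfbr3* and *Ltbp4* (0.90) were nearly as close as *Tgfb2* and *Tgfb3*.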

How the data were processed

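The authors ran Cell Ranger 7.2.0 against mm10 on Chromium 3′ v3 reads and deposited raw UMI counts per gene for each barcode called as a cell. Whether intronic reads were counted is not given in the sources used here. The limits of the study's methods were applied, which are 1000 to 6000 genes, 1000 to 25000 UMIs and less than 8% of UMIs from mitochondrial genes per cell. Counts were scaled to 10000 per cell, log-transformed and clustered (Leiden, resolution 0.3, 3000 variable genes without the 10 genes and sex-linked genes, 30 components and 20 neighbours) with scikit-learn 1.9.0, scanpy 1.11.5 and igraph 0.11.9. Clusters with markers of several classes were clustered again. The study's Harmony correction was not used.

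Clusters were named from fixed markers (at least 3 at 2-fold or more) by a rule set after the data were seen, so names are rebuilt. Doublets were left in, and Scrublet, which marked 1.65% to 2.56% of cells per library, was an alternative. In all, 653 cells stayed unnamed, and Scrublet marked 52.1% of them. Of the unnamed cells, 440 formed a cluster with 8 myogenic and 6 FAP markers. It had 47 and 41 cells in WT and 113 and 239 cells in KO libraries, and was in none of the classes compared. Classes with at least 50 cells in every library were tested.

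Sums of raw counts over the cells of a class in 1 library entered edgeR 4.0.16 (TMM, filterByExpr, quasi-likelihood test, R 4.3.3) after a check on simulated counts. DESeq2 1.42.0 and the settings listed in the closing section were alternatives. Shares of cells used counts thinned to 2000 UMIs. The median log2 ratio of KO to WT CPM over genes of at least 10 CPM lay within -0.03 and 0.00 in every class. Named were all 10 genes, those with an unadjusted p under 0.05 outside myogenic-like and FAP-like cells, the same among the pathway list, and the 3 most similar genes, of which 1 is not reported here. The genes and lists were chosen with earlier results of these data known.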

Additional observations from a re-analysis of the deposited data

How the results depend on the processing

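Genes called within the 9 classes numbered 41 with TMM factors and edgeR's filter. The count was 669 without the filter on low counts, 395 with the replicate block, 19 without the cells called by Scrublet, 11 with the looser cell filter and 290 to 489 when 1 library was left out. Over all kept cells it was 0, against 54 with DESeq2 and 0 to 58 when 1 library was left out. By myogenic stage it was 0, against 3 with DESeq2, 19 without the filter, 8 with the replicate block and 49 to 470 when 1 library was left out. For the interaction it was 0, against 1 with RLE factors, 44 without the filter and 2 to 12 when 1 library was left out. The cause was not tested. Replicate numbers are not said to mark a shared batch, and with 2 pairs the correlation of same-numbered deviations was 0.02 to 0.36, so the replicate block is given only here. It called none of the 10 genes.

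Among the 10 genes, the count called was 0, against 1 without the filter (*Tgfbi* in the interaction). Without KO replicate 1, *Tgfbr3* and *Tgfbi* in cycling cells passed the threshold. Without KO replicate 2, *Tgfbi* passed it in the interaction and in all kept cells (log2 fold change -0.55 in the latter). The KO group then had 1 library, and other genes passed as well, as the counts above show. Leaving out 1 library turned the sign of small log2 fold changes. The ranges in myogenic-like cells were -0.039 to 0.16 for *Tgfb3*, -0.32 to 0.13 for *Ltbp1*, -0.75 to 0.25 for *Ltbp2* and -0.065 to 0.19 for *Ltbp4*. In FAP-like cells they were -0.30 to 0.046 for *Tgfb1*, -0.081 to 0.014 for *Tgfbr2*, -0.24 to 0.095 for *Tgfbr3*, -0.35 to 0.30 for *Ltbp2*, -0.061 to 0.050 for *Ltbp3*, -0.11 to 0.066 for *Ltbp4* and -0.066 to 0.13 for *Tgfbr1*. *Ltbp2* in FAP-like cells was -0.011 with the replicate block, *Ltbp3* there was 0.011 at resolution 1, and *Tgfb2* in mast-like cells was -0.31 with the looser cell filter. *Tgfbi* in myogenic-like cells stayed between 0.42 and 0.49 under every alternative run.

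The level of *Tgfbr3* in glial-like cells was 709 CPM at resolution 1, and that of *Ltbp1* in chondrocyte-like cells 109 CPM with the looser cell filter. Depth sets the share of cells with a UMI. Thinned to 1000 UMIs and without thinning, it was 10.8% and 70.0% for *Tgfb1* in mast-like cells, 17.1% and 74.2% for *Tgfbr2* in endothelial-like cells, 44.0% and 93.0% for *Tgfbr3* in glial-like cells and 15.2% and 56.2% for *Ltbp1* in chondrocyte-like cells. In tenocyte-like cells it was 24.3% and 82.7% for *Tgfb2*, 8.02% and 50.9% for *Tgfb3*, 4.61% and 27.5% for *Ltbp2*, 8.45% and 56.7% for *Ltbp3*, 8.97% and 57.7% for *Ltbp4* and 20.6% and 78.4% for *Tgfbi*. The looser filter was not applied to stages, and resolution 1 not to all kept cells.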

Other observations

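Some cells belonged to classes with too few cells in a library for a test, and their values are given without comparison. In 64 lymphoid-like cells, *Tgfb1* was 160.5 and 137 CPM (WT) and 203 and 108 CPM (KO), from 67 UMIs, and *Tgfbr2* 131 and 221 CPM (WT) and 141 and 93.3 CPM (KO). In 181 neutrophil-like cells, *Tgfbi* was 90.3 and 119 CPM (WT) and 223 and 107 CPM (KO), from 79 UMIs, and *Tgfbr2* 106 and 144 CPM (WT) and 94 and 91.6 CPM (KO). In 29 osteoblast-like cells, *Tgfb1* was 227 and 104 CPM (WT) and 0 and 132 CPM (KO), from 46 UMIs. In 77 myotube-like cells, *Tgfb2* was 51.5 and 40.9 CPM (WT) and 65.5 and 96.5 CPM (KO), from 53 UMIs. KO replicate 1 held 1 osteoblast-like cell, so its value there is that of a single cell.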
